A study of Mus musculus with 4 samples.

Results

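The enzymes that carry carbon from acetyl-CoA through mevalonate to squalene epoxide were followed in 4T1 cells. This line comes from a mouse mammary carcinoma, metastasises readily and stands in for triple-negative breast cancer. The set was given by name as 9 genes, Acat2, Hmgcs1, Mvk, Pmvk, Mvd, Idi1, Fdps, Fdft1 and Sqle, each represented by its brightest row with a single gene symbol. A row was found for 8 of them among the 30743 genes named in the table, each with 1 row. Acat2 had no such row and enters only the promoter search. The genes were put together with results of the same comparison already known, so the group differences are described without a test. The arrays were 2 of scramble-control cells (NC) and 2 of cells with a short hairpin against MCT-1 (shMCT-1), all of them 4T1 total RNA on whole-transcript arrays, with the duplicates labelled as independent and biological. The shMCT-1 cells were clones grown for 2 weeks in 0.5 μg/ml puromycin per the labels, which do not say whether the control was selected in the same way or whether the replicates were separate clones. The SD over 2 arrays therefore covers the spread between these samples, which may be technical.

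The mevalonate pathway builds isoprenoid units from acetyl-CoA and joins them into farnesyl diphosphate and then squalene, the precursor of all sterols. Its genes are known targets of SREBP-2, a transcription factor that is held at the endoplasmic reticulum when sterols are plentiful and released when they run low. Farnesyl and geranylgeranyl units made on the way also serve protein prenylation, dolichol and ubiquinone synthesis.

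Because the set shares this regulator, the 250 bases before the start site of its genes were searched on both strands for TCACNCCAC, the sterol regulatory element bound by SREBP, for CCAAT, bound by NF-Y, and for GGGCGG, bound by Sp1. The RefSeq promoter table (GRCm38.p6) held 7 windows for 6 of the genes, and Fdps, Fdft1 and Sqle had none. Among the 7 is 1 window of Acat2, which was not measured, and its only match was to GGGCGG. TCACNCCAC was found in 1 of the 7 windows, that of Hmgcs1, and in 1.05% of all 32851 windows of the same length. CCAAT was found in 5 of 7 (33.8% of all windows) and GGGCGG in 5 of 7 (32.7% of all windows). No match in these windows overlapped another. A match describes letters in the window and is no evidence of binding. The windows of Hmgcs1, which holds all 3 motifs, of Idi1, which had the largest group difference, of Mvk, whose shMCT-1 arrays were the closest to each other, and of Mvd, whose groups overlapped, are shown 5′ to 3′ with the matches in capitals. They lie at chr13:119690101-119690350 (plus strand), chr13:8885356-8885605 (plus strand), chr5:114444019-114444268 (plus strand) and chr8:122443423-122443672 (minus strand).
Hmgcs1: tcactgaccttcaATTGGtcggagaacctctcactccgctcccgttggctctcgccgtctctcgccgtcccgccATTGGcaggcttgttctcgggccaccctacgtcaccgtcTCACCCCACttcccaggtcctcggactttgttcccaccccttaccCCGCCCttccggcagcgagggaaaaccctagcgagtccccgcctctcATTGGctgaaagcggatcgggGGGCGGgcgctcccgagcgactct
Idi1: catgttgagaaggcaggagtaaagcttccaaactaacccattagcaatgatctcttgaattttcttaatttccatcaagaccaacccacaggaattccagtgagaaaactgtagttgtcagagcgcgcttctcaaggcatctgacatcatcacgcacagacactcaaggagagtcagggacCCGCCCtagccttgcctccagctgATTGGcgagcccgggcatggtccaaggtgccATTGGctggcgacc
Mvk: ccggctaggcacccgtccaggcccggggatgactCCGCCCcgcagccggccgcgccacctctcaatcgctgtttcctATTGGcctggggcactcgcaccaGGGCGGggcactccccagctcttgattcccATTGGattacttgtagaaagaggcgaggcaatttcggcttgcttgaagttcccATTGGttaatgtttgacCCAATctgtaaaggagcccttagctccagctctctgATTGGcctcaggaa
Mvd: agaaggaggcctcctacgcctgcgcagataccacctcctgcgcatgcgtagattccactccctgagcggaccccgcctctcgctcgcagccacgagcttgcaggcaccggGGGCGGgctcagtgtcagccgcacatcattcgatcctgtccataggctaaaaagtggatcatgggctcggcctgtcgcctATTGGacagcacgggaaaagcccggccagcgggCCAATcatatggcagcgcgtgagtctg
In Hmgcs1 the sterol element began 137 bases before the start site, between CCAAT matches that began at 237, 176 and 45 bases. Mvk held the most CCAAT matches, 5 in all, against 2 in Idi1 and 2 in Mvd.

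Values are the authors' deposited log2 expression summaries for 65956 rows, with array medians from 3.68 to 3.73. The targeted gene, Mcts1, encodes MCT-1, a factor of translation reinitiation, and was at 7.86 and 8.05 on NC replicates 1 and 2 and at 7.81 and 7.89 on shMCT-1 replicates 1 and 2, a log2 difference of -0.10 (SE 0.122). The groups overlapped, so these values show no lower transcript level, and shMCT-1 names the label of an array rather than a measured knockdown. The 7 epithelial markers lay between 11.12 and 17.21 on every array, although the basal keratin Krt14 was lower on shMCT-1, at 12.92 and 12.76 on NC against 11.12 and 11.20 (log2 difference -1.68, SE 0.118), and its part in the other results was not tested. Of 16 measured markers of leukocytes, fibroblasts, endothelium and adipocytes, 12 were below the array median on all 4 arrays, and the macrophage-associated Cd68 (10.15, 8.26, 8.55 and 9.0) was the brightest of the others. NC replicate 1 stood apart through interferon-stimulated genes, whose median over 11 measured genes was 3.51 above the mean of the other 3 arrays. Their groups overlapped, and the log2 differences of Usp18 (-3.08), Rsad2 (-2.25), Oas2 (-2.11), Cmpk2 (-1.97), Irf7 (-1.93), Oasl2 (-1.67), Ifit1 (-1.62), Mx2 (-1.21), Isg15 (-1.18) and Ifit3 (-0.73) came to between -0.39 and 0.20 without that array. On the same array the 8 pathway enzymes were, in the median, 0.50 below the other 3. Those 3 include both shMCT-1 arrays, so this value also holds the group difference. The 2 controls lay closer together, with NC replicate 2 higher in 5 of the 8 enzymes and by 0.14 in the median. Whether the interferon difference bears on the enzymes was not tested. The difference of each enzyme is therefore given with and without NC replicate 1, and for other genes this is done only in part. In limma, 0 of 65956 rows passed an adjusted p of 0.05 (0%), the 8 enzymes included, and 5.61% of all rows had an unadjusted p under 0.05.

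All 8 measured enzymes had a higher mean on the arrays labelled shMCT-1, as did 56.4% of all rows. Their log2 differences ran from 0.34 for Fdft1 to 1.27 for Idi1, with a median of 0.63, against 0.0238 over all rows. In 6 of the 8 both shMCT-1 arrays lay above both NC arrays, which was so in 19.8% of all rows and in 21.2% of rows above the median signal. A difference of at least 1.5-fold was reached by 4 of the 8, Idi1, Sqle, Fdps and Hmgcs1, and by 1.29% of all rows (2.45% of rows above the median signal). In RNA from whole cultures, a higher level in every cell and a larger share of cells with a high level cannot be told apart. The shares of all rows are given for scale only, because the genes were chosen with this comparison in view. Leaving out NC replicate 1 gave a median of 0.64, and leaving out NC replicate 2 gave 0.68. Dropping shMCT-1 replicate 1 lowered it to 0.43, and dropping shMCT-1 replicate 2 raised it to 1.0, over 1.5 times the value with all arrays.

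**Figure D1:**
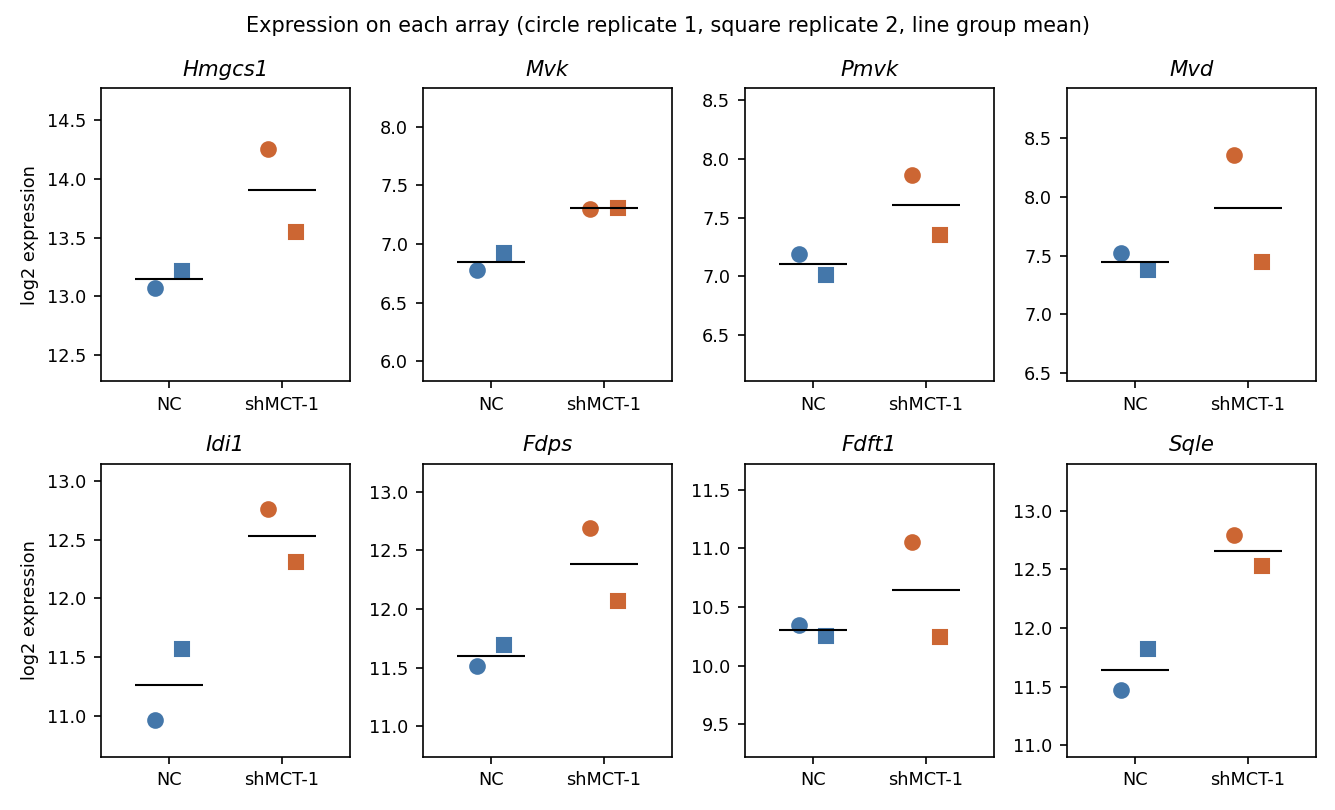
Log2 expression of the 8 measured enzymes on each array, in pathway order, with every panel spanning the same log2 range (circles replicate 1, squares replicate 2, lines group means). Both shMCT-1 arrays lie above both NC arrays for 6 genes, and for Mvd and Fdft1 shMCT-1 replicate 2 lies level with the NC arrays.

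The pathway opens with the condensation of acetyl-CoA to acetoacetyl-CoA by Acat2 and the addition of a further acetyl-CoA by Hmgcs1, the cytosolic HMG-CoA synthase. Hmgcs1 (gene ID 208715) was at 13.07 and 13.22 on NC replicates 1 and 2 and at 14.26 and 13.55 on shMCT-1 replicates 1 and 2. Both shMCT-1 arrays were above both controls, and replicate 1 was the higher by 0.70, a wider spread than the gap of 0.33 between the groups. The log2 difference was 0.76 (SE 0.255), a 1.69-fold higher level, and 0.68 without NC replicate 1. Without shMCT-1 replicate 1 it was 0.41.

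Mevalonate is then phosphorylated by Mvk and Pmvk and decarboxylated by Mvd to isopentenyl diphosphate. Mvk (gene ID 17855), the mevalonate kinase, was at 6.78 and 6.92 on the NC arrays and at 7.30 and 7.31 on the shMCT-1 arrays. Its group means were 6.85 ± 0.0998 and 7.31 ± 0.00528 (SD, n = 2 each), so a difference of only 0.45 (SE 0.111) went with the smallest spread of the set on the shMCT-1 arrays. Without NC replicate 1 it was 0.38, and with shMCT-1 replicate 1 left out it was 0.46. Pmvk (gene ID 68603), the phosphomevalonate kinase, was at 7.19 and 7.01 on the NC arrays and at 7.86 and 7.35 on the shMCT-1 arrays. The groups did not overlap, but shMCT-1 replicate 2 was only 0.16 above the higher control. The difference of 0.51 (SE 0.203) was 0.60 without NC replicate 1, and shMCT-1 replicate 2 on its own gave 0.25.

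Mvd (gene ID 192156), the diphosphomevalonate decarboxylase, was at 7.52 and 7.38 on the NC arrays and at 8.36 and 7.45 on the shMCT-1 arrays. Here shMCT-1 replicate 2 lay between the controls and replicate 1 stood 0.91 above it, the widest such spread in the set. The difference of 0.46 (SE 0.316) was 0.53 without NC replicate 1, while shMCT-1 replicate 1 alone gave 0.91 and replicate 2 alone 0.00. The 3 enzymes from mevalonate to isopentenyl diphosphate thus had differences of 0.45, 0.51 and 0.46, nearly equal in size but with SDs on the shMCT-1 arrays from 0.00528 for Mvk to 0.643 for Mvd.

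Idi1 and Fdps turn isopentenyl diphosphate into farnesyl diphosphate. Idi1 (gene ID 319554), the isopentenyl diphosphate isomerase, was at 10.96 and 11.57 on the NC arrays and at 12.76 and 12.31 on the shMCT-1 arrays. Its groups were the furthest apart of the set, with a gap of 0.74, although NC replicate 1 was 0.62 below NC replicate 2. The log2 difference was 1.27 (SE 0.268), a 2.41-fold higher level that ranked 13 from the top among 30743 genes. Without NC replicate 1, the control with the lower value, it was 0.96, and without NC replicate 2 it was 1.58. Fdps (gene ID 110196), the farnesyl diphosphate synthase, was at 11.51 and 11.69 on the NC arrays and at 12.69 and 12.07 on the shMCT-1 arrays. The groups were apart by 0.38, with shMCT-1 replicate 1 again the higher, by 0.63. Its difference of 0.78 (SE 0.236), or 1.72-fold, was 0.69 without NC replicate 1, and 0.47 when shMCT-1 replicate 1 was dropped.

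Fdft1, the squalene synthase, commits farnesyl diphosphate to sterols, and Sqle, the squalene epoxidase, adds the oxygen that allows ring closure. Fdft1 (gene ID 14137) was at 10.35 and 10.25 on the NC arrays and at 11.05 and 10.24 on the shMCT-1 arrays. Only shMCT-1 replicate 1 was above the controls, and replicate 2 was level with them. The difference of 0.34 (SE 0.284) was the smallest of the set and turned to -0.06 without shMCT-1 replicate 1. Without NC replicate 1 the difference was 0.39, and without shMCT-1 replicate 2 it was 0.75. Sqle (gene ID 20775), a rate-limiting step of sterol synthesis beyond mevalonate, was at 11.47 and 11.82 on the NC arrays and at 12.79 and 12.53 on the shMCT-1 arrays. The groups were apart by 0.71, and the shMCT-1 arrays differed from each other by only 0.26. Sqle had a difference of 1.02 (SE 0.175), or 2.02-fold, which was 0.84 without NC replicate 1 and ranked 31 from the top among 30743 genes.

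**Figure D2:**
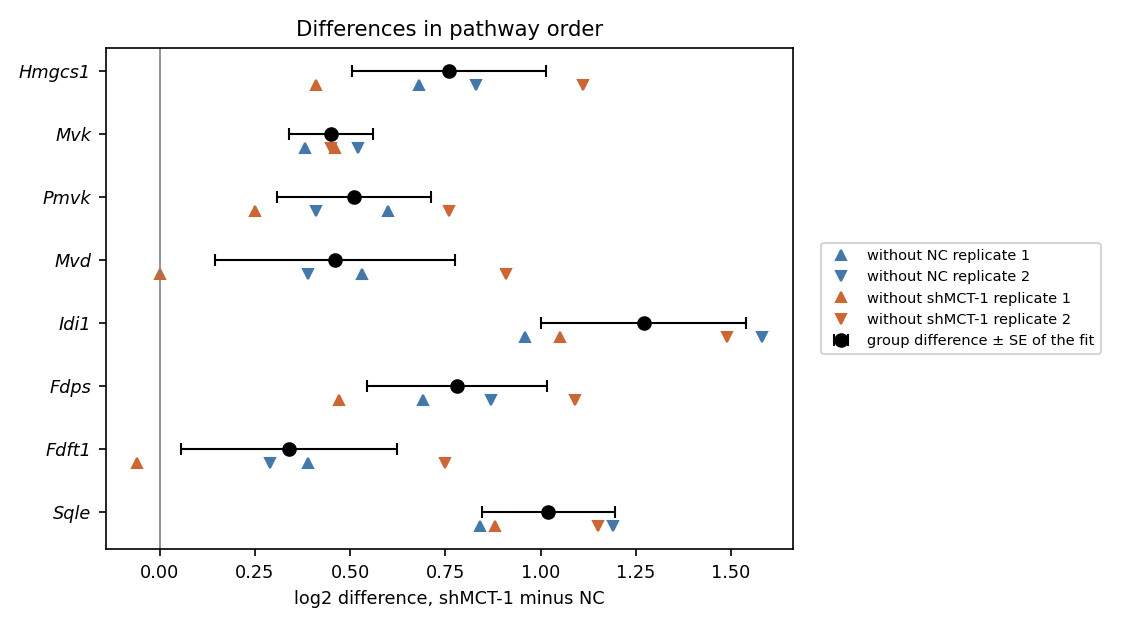
Log2 differences, shMCT-1 minus NC, of the 8 enzymes in pathway order (black points, with bars for the SE of the limma fit) and the same with 1 array left out (triangles). Idi1 and Sqle have the largest differences, 1.27 and 1.02, and the triangle without shMCT-1 replicate 1 falls to 0.00 for Mvd and -0.06 for Fdft1.

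Ordered by size, the differences fell from Idi1 over Sqle, Fdps, Hmgcs1, Pmvk, Mvd and Mvk to Fdft1. Each step between neighbours was at most 0.25 and below the combined SE of the pair, which ran from 0.294 to 0.376. That SE treats the genes of a pair as independent although they share the arrays, so the order of neighbours is not taken as resolved. The order did not follow the position in the pathway, since Fdft1, with the smallest difference, stands just before Sqle, with the second largest.

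Single pairs of arrays showed where the spread lay. These pairs share arrays and are not independent of each other. Shares for single pairs, here and within the groups, are of all rows, although the enzymes lie above the median signal. For rows above the median signal these shares were not computed. For the group difference, the 1.5-fold share was 2.45% of such rows against 1.29% of all rows. Against NC replicate 1, shMCT-1 replicate 1 was at least 1.5-fold higher in 7 of the 8 enzymes (3.31% of all rows), with differences from 0.52 to 1.80. Against NC replicate 2 it was so in 7 of 8 (1.95% of rows), from 0.38 to 1.18. For shMCT-1 replicate 2 the count was 2 of 8 against NC replicate 1 (7.24% of rows), with differences from -0.11 to 1.35. It was 2 of 8 against NC replicate 2 (1.91% of rows), from -0.01 to 0.74. The 2 genes were Idi1 and Sqle in both cases, and they were the only members past 1.5-fold on every pair across the groups. Taken by replicate number, the median difference was 1.01 for replicate 1 and 0.36 for replicate 2.

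Within the groups, shMCT-1 replicate 1 was above shMCT-1 replicate 2 in 7 of 8 enzymes, as in 51.8% of all rows, with a median of 0.57. It was so by at least 1.5-fold in 4 of 8, Hmgcs1, Mvd, Fdps and Fdft1 (2.32% of rows). Mvk was the exception, at -0.01. The NC arrays were closer to each other than the shMCT-1 arrays in 5 of 8 enzymes, and further apart in Mvk, Idi1 and Sqle. NC replicate 2 was above NC replicate 1 in 5 of 8 (53.0% of rows), with a median of 0.14, and by at least 1.5-fold in 1 of 8, Idi1 (3.78% of rows). The shMCT-1 arrays differed by 0.45 in Idi1 and 0.26 in Sqle, the enzymes past 1.5-fold on every pair across the groups. The difference was 0.51 in Pmvk and from 0.63 to 0.91 in Hmgcs1, Fdps, Fdft1 and Mvd. Mvk, with the closest shMCT-1 arrays, was past 1.5-fold on none of the pairs across the groups.

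**Figure D3:**
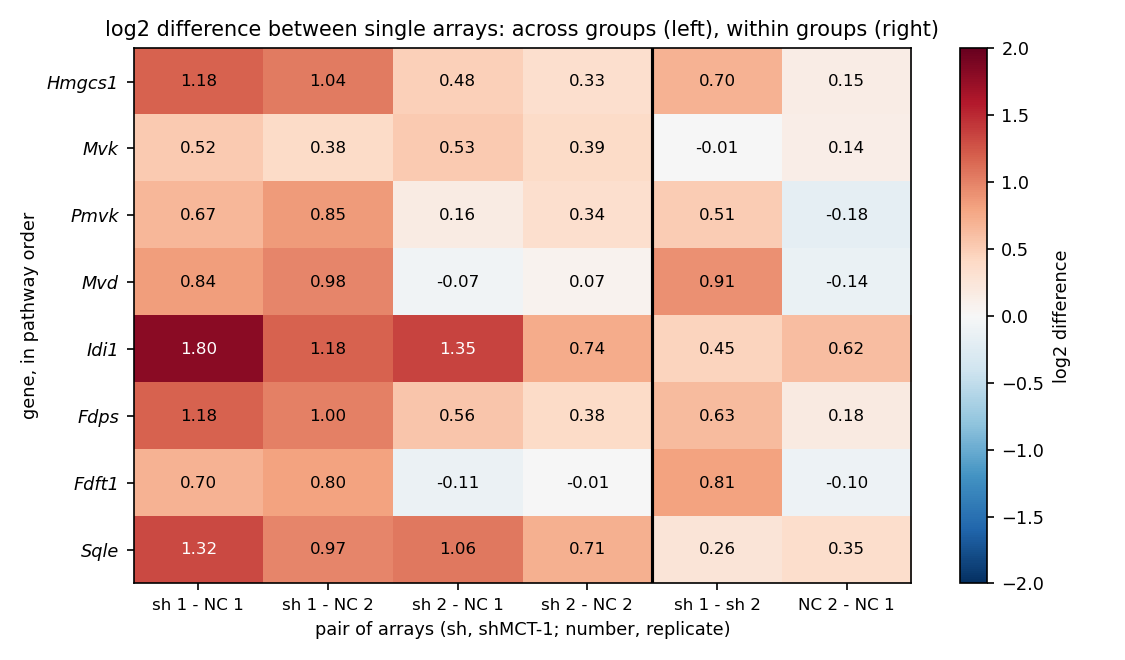
Log2 differences between single arrays for the 8 enzymes, with the 4 pairs across groups left of the black line and the 2 pairs within groups right of it (red higher, blue lower). The columns of shMCT-1 replicate 1 are red throughout, from 0.38 to 1.80, whereas those of shMCT-1 replicate 2 reach 0.56 at most outside Idi1 and Sqle.

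The steps that follow squalene epoxide were also higher. Of 9 measured genes from lanosterol to cholesterol, 8 had a higher mean, all 8 with separate arrays (by only 0.02 and 0.01 for Lbr and Ebp), and the median difference was 0.60. Hsd17b7, a sterol ketoreductase, was 1.20 higher (SE 0.282) and 0.80 without NC replicate 1, and Lss, the lanosterol synthase that closes the rings, was 1.05 higher (SE 0.171). Cyp51, the lanosterol demethylase (0.74), Msmo1, the methylsterol oxidase (0.63), and Nsdhl, a sterol dehydrogenase (0.60, or 0.37 without shMCT-1 replicate 1), were also at least 1.5-fold higher. Dhcr7, the last reductase, was the 1 lower gene, at 7.02 and 7.39 on NC and 6.92 and 6.98 on shMCT-1. In this list shMCT-1 replicate 1 minus replicate 2 ran from -0.23 for Lbr to 0.46 for Nsdhl, and the list median of the group difference was 0.44 without replicate 1 and 0.82 without replicate 2.

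Among 8 measured regulators and uptake genes, 4 were higher and 4 lower. Srebf2, which encodes SREBP-2, was at 10.30 and 10.24 on NC and at 10.91 and 10.87 on shMCT-1, so its shMCT-1 arrays differed by far less than those of most enzymes. Insig1, which retains SREBP at the endoplasmic reticulum and is itself an SREBP target, was at 9.90 and 10.11 on NC and at 11.05 and 10.40 on shMCT-1, with replicate 1 the higher as in Hmgcs1 and Fdps. Its difference was 0.72 (SE 0.242), and 0.40 when that replicate was left out. Stard4, a cytosolic sterol carrier, was 0.58 higher (SE 0.167), and 0.38 on shMCT-1 replicate 2 alone. Npc2, which hands cholesterol out of lysosomes, was lower on both shMCT-1 arrays, at 9.0 and 8.48 on NC and 7.98 and 8.02 on shMCT-1, a difference of -0.74 (SE 0.199) that was -0.47 without NC replicate 1. The row of Srebf1 also carries a microRNA and was not used.

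Genes that take farnesyl diphosphate and its products into other branches were not higher as a group. Of 12 measured genes for prenyl transfer, processing of prenylated proteins, dolichol and ubiquinone synthesis, 4 were higher and 8 lower, with a median of -0.05, and 0 had both shMCT-1 arrays above both NC arrays. Fnta, the alpha subunit shared by farnesyl and geranylgeranyl transferase, was at 11.39 and 11.64 on NC and at 10.99 and 11.14 on shMCT-1, a difference of -0.45 (SE 0.139). Rabggta, a subunit of the Rab prenyltransferase, was at -0.28 (SE 0.208) with overlapping arrays, and from -0.51 to -0.05 with 1 array left out. Ggps1, which extends farnesyl to geranylgeranyl diphosphate, was at 8.79 and 8.91 on NC and at 8.74 and 8.95 on shMCT-1. Farnesyl diphosphate synthase itself, at 0.78, was above every gene of these branches, whose differences ran from -0.45 to 0.24.

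Mitochondrial enzymes and paralogs of the set gave 1 higher and 5 lower among 6 measured genes. Acat3, a paralog that neighbours Acat2 on the chromosome in the RefSeq table, was at 8.70 and 8.80 on NC and at 9.67 and 9.29 on shMCT-1, a difference of 0.73 (SE 0.164), and its probes may share signal with Acat2. Acat1, the mitochondrial acetoacetyl-CoA thiolase, was lower on both shMCT-1 arrays (13.53 and 13.33 against 13.18 and 13.23). Acaa2, a thiolase of mitochondrial fatty acid oxidation, was at 11.67 and 10.72 on NC and at 10.55 and 9.95 on shMCT-1, a difference of -0.94 (SE 0.379) that was -0.47 without NC replicate 1 and -1.42 without NC replicate 2. Idi2, the paralog of Idi1, was dim on every array, from 3.16 to 3.36.

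Genes of sterol efflux and esterification differed little, but most of them were dim. The mean level of the list was from 3.97 to 4.07 on the arrays, and 3 of the 8 genes were below the array median on every array. Small differences in such dim rows cannot be read as a lack of change. Soat1 and Nr1h2 of this list were not measured. Of 8 measured, 7 were higher, but the largest difference was 0.17, for Apoe, a lipid carrier, followed by 0.09 for Abcg1, a sterol exporter, and Lcat, a cholesterol acyltransferase. Ch25h, an interferon-inducible enzyme whose product 25-hydroxycholesterol holds SREBP back, was at 3.50 and 3.27 on NC and 3.36 and 3.57 on shMCT-1. These values lie below the array medians, so a response of this gene could not be read from them.

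**Figure D4:**
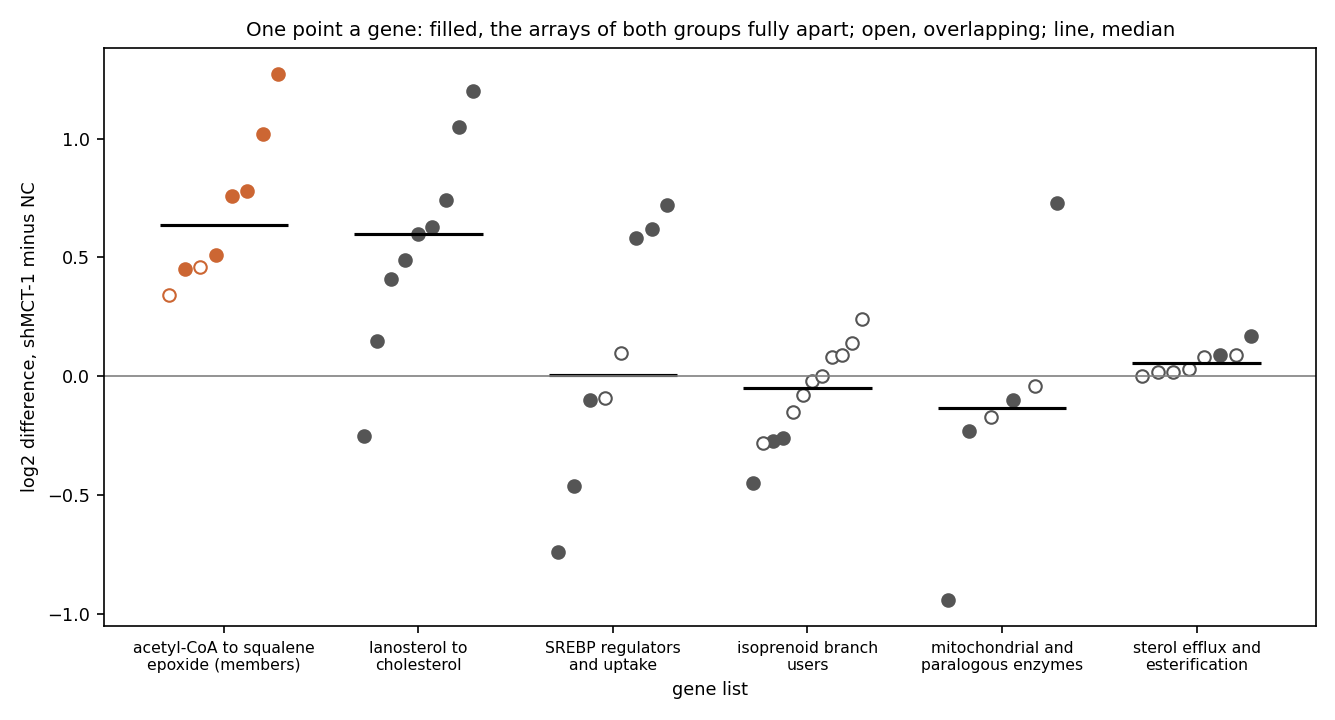
Log2 differences, shMCT-1 minus NC, 1 point a gene, for the 8 enzymes (orange) and 5 lists of related genes (grey), with lines at the medians and filled points where the arrays of the groups did not overlap. The medians are 0.63 and 0.60 for the 2 parts of the sterol pathway, and between -0.14 and 0.06 for the other lists. Most genes of sterol efflux and esterification are dim, so their small differences cannot be read as a lack of change.

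Outside these lists, the 6 genes whose profile over the 4 arrays was nearest to the median profile of the 8 enzymes were Syt13, Aldoc, Mctp2, Tmem176b, Ptges and Rom1, chosen from 11233 protein-coding genes above the median signal. The measure was the Euclidean distance between values centred on each gene's mean, and it ran from 0.197 for Syt13 to 0.301 for Rom1. Tmem176b, a membrane protein, was the bright one, at 13.87 and 13.77 on NC and at 14.61 and 14.26 on shMCT-1, and the other 5 had values from 3.60 to 5.78. Hmgcs1 (0.107) and Fdps (0.115) were nearer to that profile than any of the 11233 genes, and Idi1 (0.701) was the farthest of the enzymes, with 1015 genes nearer. The median profile includes those enzymes, and 4 arrays allow many genes to look alike.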

How the data were processed

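RNA from 4T1 cells was hybridised to 4 arrays, 2 NC and 2 shMCT-1, grouped by title. Affymetrix Expression Console and RMA were used by the authors, per the submitters' processing notes (build and versions not given in the sources used here). What was deposited are log2 summaries, as their range from 1.29 to 19.88 shows. They were used as given, with 0 columns left out. Very dim and very bright rows can be compressed, so a log2 difference may understate a change. The probe table named 30604 rows by 1 symbol and 2146 by several, and it did not list the other 33206 rows. Shares and medians of all rows include the unlisted rows, whereas ranks are among the 30743 named genes. Of these 2146 rows, 612 carried only names of 1 gene and were kept. Symbols of 827 rows were updated with a GRCm38.p6 gene table.

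Differences (shMCT-1 minus NC) and SEs were fitted to all 65956 rows with lmFit and eBayes (limma 3.58.1, R 4.3.3, Benjamini-Hochberg, threshold 0.05), with 2 residual degrees of freedom. The fit was tested on simulated data. An exact permutation of 4 arrays cannot go below 0.333. The genes and lists were chosen with earlier results of these data known. Named genes were the members, Mcts1, list genes with a difference of at least 0.58 or else the 2 largest, Srebf2, Insig1 and Ch25h, and the 6 nearest profiles; further list genes were picked with their values in view. Alternatives covered moderation, scaling, array weights, a filter on dim rows, a replicate block and leaving out each array.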

Additional observations from a re-analysis of the deposited data

How the results depend on the processing

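Each of the 8 enzymes kept its direction under quantile normalisation, median centring, array weights and the replicate number as a block. Leaving out shMCT-1 arrays moved several: Fdft1 was at -0.06 without replicate 1 and 0.75 without replicate 2, Mvd at 0.00 and 0.91, and Hmgcs1 at 0.41 and 1.11. The median over the enzymes ran from 0.43 to 1.0 with 1 array left out and from 0.59 to 0.63 otherwise, and separate arrays were found in 5 of 8 when a gap of 0.2 was asked for. No gene of the set had another row, so the other choices of row were not run. Rows past the adjusted threshold numbered 0 in every setting. Rows with an unadjusted p under 0.05 and at least 1.5-fold numbered 809, 261 without moderation, 1510 with the replicate block, and from 818 to 3661 with 1 array left out. Deviations of same-numbered arrays correlated at 0.42 over all rows and at 0.56 over rows above the median signal, where the 8 enzymes lie. With 2 pairs and no label for a shared batch, the numbers were still not taken to pair the arrays. The block left the differences as they were and gave SEs such as 0.207 for Mvd and 0.27 for Idi1. With 1 array left out, list medians ran from -3.44 to 0.02 for interferon-stimulated genes (0.02 without NC replicate 1), from -0.16 to 0.00 for the isoprenoid branches and from 0.00 to 0.09 for efflux genes. The median of regulators and uptake genes was -0.02 with either scaling. The number of arrays limits the precision of every value.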
